A study of Mus musculus with 4 samples.

Results

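The imprinted genes described here in the white adipose tissue (WAT) of Fsp27 knockout mice are 10 of the 12394 genes named on the array. Mest, Nap1l5, Peg3, Plagl1, Ndn, Sgce and Peg10 are expressed from the paternal allele, and Cdkn1c, Grb10 and H19 from the maternal allele. All 22 probe sets annotated to these 10 genes were taken from the 22690 probe sets of the array. The members were chosen by their signals on the same arrays, Mest and Nap1l5 for their difference between the genotypes and the others with earlier results of that contrast known, so that the values of the members are given as a description and carry no test. RNA from the gonadal WAT of 3-month-old male C57BL/6J mice was pooled from 5 Fsp27 knockout mice and from 5 wild-type mice, and each pool was hybridized in duplicate, giving 2 arrays for each genotype. The 2 arrays of a genotype are repeats of 1 pool, so that their spread, and every p-value built on it, is technical and leaves out the variation between mice.

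DNA methylation laid down in the germ line sets the parental copies of imprinted genes apart. Imprinted genes are expressed mainly from the copy inherited from 1 parent. Many of them act on fetal growth, and several, including Plagl1, Peg3, Mest, Cdkn1c, Grb10 and H19, are highly expressed in the mouse embryo and decline after birth as a coexpressed network. In adult mouse WAT, Mest is known as a gene whose expression goes with the expansion of fat mass. The array measures total transcript and cannot tell the parental alleles apart. In pooled tissue, fewer cells of a type and less RNA per cell cannot be told apart either.

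The stretches upstream of the start sites are shown for the 4 members with the largest differences between the genotypes, since imprinted promoters are methylated at CpG dinucleotides, which are printed in capitals. Each runs over the 250 bases before the RefSeq transcript start, 5′ to 3′ on the strand of the gene, in GRCm38.p6.
Mest, chr6:30737800-30738049, plus strand: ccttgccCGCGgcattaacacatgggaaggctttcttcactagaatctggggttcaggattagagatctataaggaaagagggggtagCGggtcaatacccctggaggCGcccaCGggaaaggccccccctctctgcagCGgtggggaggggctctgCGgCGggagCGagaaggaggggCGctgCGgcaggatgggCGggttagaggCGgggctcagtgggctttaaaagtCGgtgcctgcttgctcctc
Nap1l5, chr6:58907127-58907376, minus strand: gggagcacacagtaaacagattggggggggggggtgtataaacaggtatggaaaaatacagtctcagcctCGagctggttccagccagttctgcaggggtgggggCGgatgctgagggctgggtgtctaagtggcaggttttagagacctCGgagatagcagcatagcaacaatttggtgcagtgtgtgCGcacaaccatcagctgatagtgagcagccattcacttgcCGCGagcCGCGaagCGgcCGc
Plagl1, chr10:13090582-13090831, plus strand: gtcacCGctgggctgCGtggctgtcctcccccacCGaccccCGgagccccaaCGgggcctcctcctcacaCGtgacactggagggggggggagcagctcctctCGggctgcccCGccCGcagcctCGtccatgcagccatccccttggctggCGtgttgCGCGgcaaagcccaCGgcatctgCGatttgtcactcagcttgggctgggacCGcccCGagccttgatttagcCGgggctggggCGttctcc
Ndn, chr7:62348027-62348276, plus strand: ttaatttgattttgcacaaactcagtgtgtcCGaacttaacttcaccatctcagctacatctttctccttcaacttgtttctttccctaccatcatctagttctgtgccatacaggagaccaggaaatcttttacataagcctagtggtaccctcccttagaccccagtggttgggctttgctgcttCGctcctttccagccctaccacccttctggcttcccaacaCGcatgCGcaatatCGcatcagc
The stretch of Mest held 14 CpG, that of Nap1l5 10, that of Plagl1 19 and that of Ndn 5, against a median of 6 over 32851 such stretches of 27025 genes. The Plagl1 stretch thus lay at or above 82.1% of all stretches in its CpG count, and the Ndn stretch at or above 49.6%. Another RefSeq start of Mest, farther upstream (chr6:30733256-30733505), had 7 CpG. Stretches were found for 6 of the 10 members, 9 stretches in all, with 5 to 40 CpG, the highest at a start of Grb10. The sequence GGGGCCCC, known as the consensus site of the Plagl1 protein and identical on both strands, occurred in 0.889% of all stretches and in 1 of the 9, that of Peg3 (chr7:6730420-6730669). These arrays do not measure methylation or binding.

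Cidec, which encodes FSP27, had a signal of 8564 and 8949 in Fsp27 knockout WAT, against 20491 and 18255 in wild-type WAT, a difference of -1.14 on the log2 scale (adjusted p = 0.00057, limma). Its signal was lower on both knockout arrays but well above that of most genes, whose median was 165 to 181 on the knockout arrays and 172 to 193 on the wild-type arrays. The sources used here do not say whether its probes lie inside the deleted part. All values below are signals of the Affymetrix GeneChip Operating Software (GCOS) on a linear scale, and log2 differences are Fsp27 knockout minus wild-type on log2(signal + 16), which understates the change of dim genes.

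Mest, an alpha/beta hydrolase fold protein, had the lowest value relative to wild-type of the 10 genes. Its signal was 174.7 and 103.8 on the Fsp27 knockout arrays, against 2488 and 1599 on the wild-type pair. Both knockout arrays lay far below both wild-type arrays, and the wild-type mean was 14.7 times the knockout mean. The log2 difference was -3.73, and the 4 pairings of a knockout with a wild-type array gave -4.39 to -3.08. Only 0.0117% of the 8523 genes tested, those whose signal averaged 100 or more over the arrays, had a lower log2 difference. The duplicates of each genotype differed by 0.67 on the log2 scale in the knockout and by 0.63 in wild-type. Mest was read by a single probe set.

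Nap1l5, a member of the nucleosome assembly protein family whose intronless gene lies within an intron of Herc3 in the mouse, stood at the opposite end. Its signal was 646 and 368 on the Fsp27 knockout arrays, against 160.3 and 19.9 on the wild-type pair. Both knockout arrays were higher than both wild-type arrays, with 5.63 times the wild-type mean. The wild-type duplicates themselves were 2.29 apart on the log2 scale, and the lower one was under the lower quartile of its array, so that the log2 difference of 2.66 ranged from 1.12 to 4.20 over the 4 pairings. Of the 8523 genes, 99.9% had a lower log2 difference. Leaving out wild-type replicate 1 gave 3.81 as its highest value and leaving out wild-type replicate 2 gave 1.52 as its lowest.

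**Figure D1:**
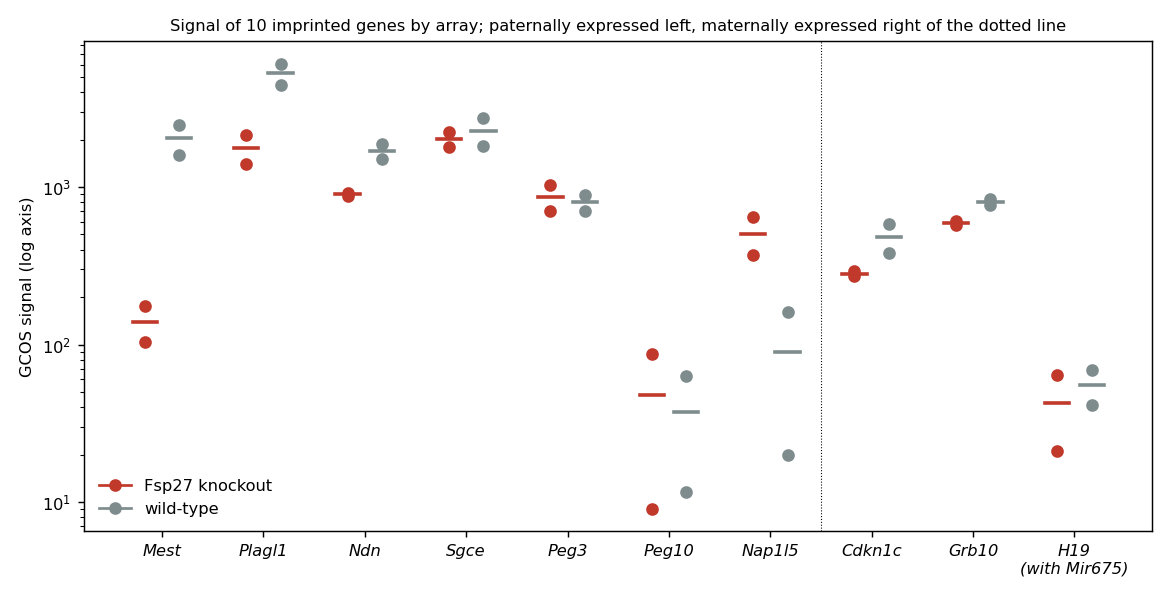
Signal of each of the 10 imprinted genes on the 2 Fsp27 knockout arrays (red) and the 2 wild-type arrays (grey), on a log axis, each from its brightest probe set; horizontal bars are the means of the duplicates, and H19 shares its probe set with Mir675. The knockout points of Mest, at 174.7 and 103.8, lie far below the wild-type points at 2488 and 1599, those of Nap1l5 lie above, and the points of Peg3, Sgce, Peg10 and H19 overlap.

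Plagl1, which encodes the zinc finger transcription factor ZAC1 and is placed at the head of the imprinted network in mice, had the second lowest log2 difference of the 10. Its brighter probe set gave 2146 and 1404 in Fsp27 knockout WAT, against 6079 and 4473 in wild-type WAT. The genotypes did not overlap, with a log2 difference of -1.58 and a wild-type mean of 2.97 times the knockout mean. The other probe set of Plagl1 was near the floor, with 81.5 and 13.9 on the knockout arrays against 16.9 and 10.04 on the wild-type pair, and 3 of its 4 values lay under the lower quartile of their array. Its log2 difference was 0.88, and only Fsp27 knockout replicate 1 stood above that level. Averaged over both probe sets, the log2 difference of Plagl1 was -0.35.

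Ndn encodes necdin, a MAGE family protein that holds back the differentiation of mouse preadipocytes. On its brightest probe set the Fsp27 knockout arrays had 883 and 917, against 1518 and 1887 on the wild-type pair. The difference was -0.90 on the log2 scale, and the wild-type mean was 1.89 times that of the knockout. Ndn is covered by 8 probe sets, and on 5 of them, the brightest, both knockout arrays lay below both wild-type arrays, with log2 differences of -1.55 to -0.51. A sixth gave 284 and 123 in the knockout against 179 and 111 in wild-type (log2 difference 0.37), with the genotypes overlapping. The remaining pair had a mean signal under 100, with log2 differences of -1.05 and 0.07. Several of the Ndn probe sets, and the brighter one of Plagl1, carry the array's x suffix, which marks probes that may also match other transcripts.

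Peg3, Sgce and Peg10 did not separate the genotypes. Peg3, a zinc finger protein, had 1038 and 701 in the Fsp27 knockout against 703 and 894 in wild-type, and its 3 probe sets gave log2 differences of 0.10, -0.01 and 0.77, all with overlapping arrays. Sgce, which encodes epsilon-sarcoglycan, had 1804 and 2235 on the knockout arrays, against 1816 and 2736 on the wild-type pair (log2 difference -0.15). Peg10, a gene derived from a retrotransposon, shares its promoter region with Sgce in the mouse. Its signal was 86.5 and 9.01 in the knockout against 63.5 and 11.6 in wild-type, with 3 arrays under their lower quartile, too dim for a difference to be measured. The sign of the log2 difference of Peg3, Sgce, Peg10 and H19 changed with the array left out, and that of the other 6 members did not.

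Among the maternally expressed members, Cdkn1c and Grb10 had lower signals in the knockout. Cdkn1c, which encodes the cyclin-dependent kinase inhibitor p57, had 294 and 271 on the Fsp27 knockout arrays, against 584 and 379 on the wild-type pair. The log2 difference was -0.71, with -1.07 to -0.35 over the 4 pairings, and without overlap between the genotypes. Grb10, an adaptor that restrains insulin and insulin-like growth factor receptor signalling, had 573 and 610 in the knockout against 772 and 836 in wild-type, the tightest duplicates of the 10 genes. Its log2 difference was -0.43. The 2 dimmer probe sets of Grb10 gave 0.18, with both knockout arrays slightly above both wild-type arrays, and -0.32, with overlap, so that its probe sets did not share a direction. Their mean was -0.19. H19, a long noncoding RNA, is read by a probe set that is annotated jointly to H19 and to Mir675, the miRNA within it. This probe set had 64.3 and 21.2 in the knockout against 41.5 and 68.4 in wild-type, with a mean signal of 48.8, and did not separate the genotypes.

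**Figure D2:**
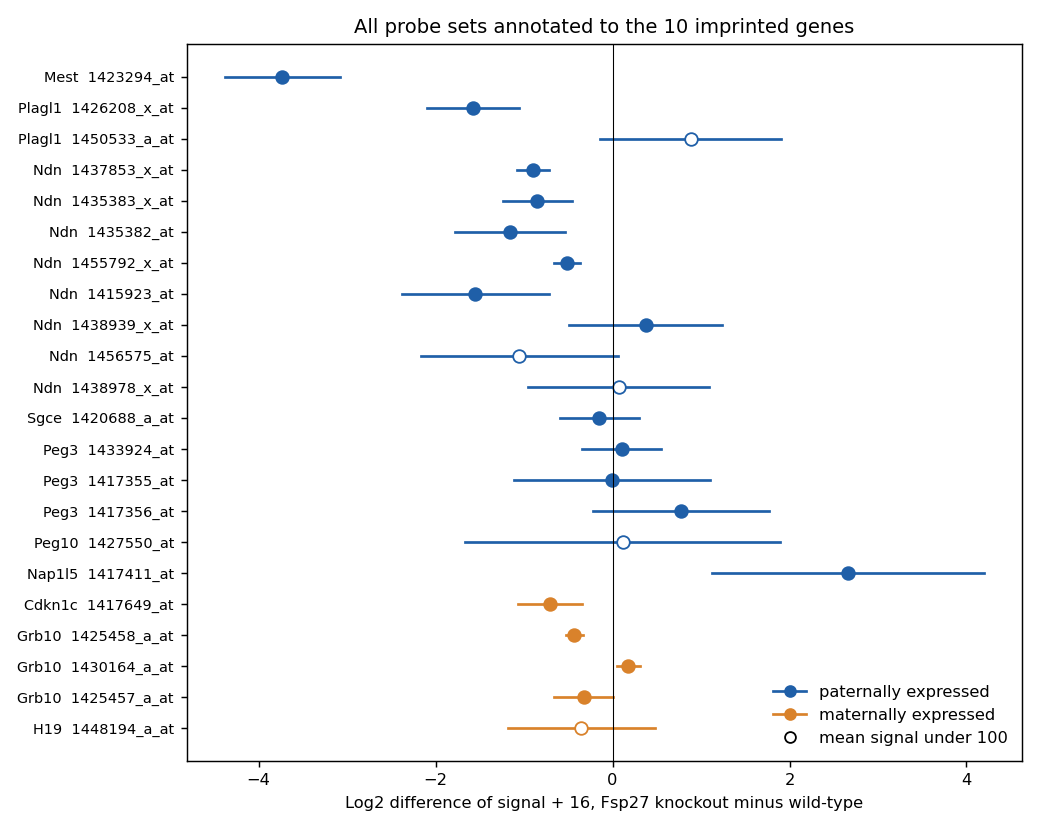
Log2 difference of signal + 16, Fsp27 knockout minus wild-type, for each of the 22 probe sets of the 10 genes, with paternally expressed genes in blue and maternally expressed genes in orange. Lines span the 4 pairings of a knockout with a wild-type array and open points have a mean signal under 100; 9 probe sets lie wholly below 0 and 2 wholly above it, those of Nap1l5 and 1 of Grb10.

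Over the 22 probe sets, both knockout arrays lay below both wild-type arrays on 9 and above on 2, and 11 overlapped. Of the 10 genes, 1 was higher without overlap and 5 were lower, where 22.7% of the 8523 genes tested were higher without overlap and 31.4% were lower. Of the 10 members, 8 passed the filter on mean signal, all but H19 and Peg10. The fit over all genes called 12.3% of the genes tested, 5.78% higher and 6.51% lower, and of the members it called Nap1l5 higher and 3 lower (Mest, Plagl1 and Ndn). These calls rest on the contrast by which the members were picked, so they are no test of them and nothing is read from their number. Nap1l5 passed the filter only through the knockout arrays, with a mean signal of 507 in Fsp27 knockout WAT against 90.1 in wild-type WAT. By the fold criterion of the study's methods, applied to the means of the duplicates, 1 member was higher and 4 were lower, where 14.5% of the genes tested were higher and 20.8% lower. The call of Nap1l5 was absent without Fsp27 knockout replicate 1 and with no filter on low signals, that of Ndn without wild-type replicate 2 and on the mean of its probe sets, and that of Plagl1 on the mean of its probe sets. None of the 4 was called by limma without the trend of spread on signal, or by the methods' t-test after adjustment. The methods name that t-test for differences between groups, and for the arrays the study gives only the fold criterion and agreement of the duplicates.

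The paternally expressed members did not share a direction. Their log2 differences ran from -3.73 for Mest to 2.66 for Nap1l5, with 3 positive and 4 negative and a median of -0.15 over the 7 genes. The maternally expressed members had -0.71 (Cdkn1c), -0.43 (Grb10, whose probe sets did not share a direction) and -0.35 (H19, too dim to be tested and 0.20 without Fsp27 knockout replicate 2), with a median of -0.43. The median was -0.05 over all 12394 genes named and -0.08 over those tested. Without Peg10 and H19, which did not pass the filter on signal, the medians were -0.52 over 6 paternally and -0.57 over 2 maternally expressed members. The paternal median moved to -0.87 without Fsp27 knockout replicate 1, -0.30 without Fsp27 knockout replicate 2, -0.44 without wild-type replicate 1 and -0.65 without wild-type replicate 2. The maternal median was -0.76 without Fsp27 knockout replicate 1.

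Of 64 further imprinted genes, 28 listed for many tissues and 36 for particular tissues, 47 were measured and 29 were bright enough to be tested. The fit called 1 of the 29 higher and 4 lower, where it called 5.78% of all genes tested higher and 6.51% lower. Nothing is read from counts this small. Nnat, which encodes neuronatin, a membrane protein also expressed in fat, and is expressed from the paternal allele, fell to 4037 and 4707 in Fsp27 knockout WAT, against 18463 and 13596 in wild-type WAT. Its log2 difference was -1.86 (SE 0.18, adjusted p = 8.1e-05, limma), and it was called without each array in turn. Mcts2, a paternally expressed retrogene within an intron of H13, rose to 633 and 953 in the knockout, against 269 and 356 in wild-type (log2 difference 1.28, SE 0.27, adjusted p = 0.0083, limma). H13 itself, the maternally expressed host, had 1495 and 1380 in the knockout against 2005 and 1754 in wild-type (log2 difference -0.38, adjusted p = 0.24, limma).

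The other 3 that fell are expressed from the maternal allele, Dcn and Pon2 only in particular tissues. Meg3, a long noncoding RNA, had 836 and 944 in the knockout against 1554 and 1673 in wild-type (log2 difference -0.85, adjusted p = 0.015, limma). Its dimmer probe sets gave log2 differences of -1.18, -0.58, -0.54 and 0.35. On the mean of its probe sets Meg3 was -0.56 and not called (adjusted p = 0.16, limma). Dcn, the matrix proteoglycan decorin, had 7109 and 8696 in the knockout against 13389 and 13133 in wild-type (-0.75 on the log2 scale, adjusted p = 0.0099, limma). Pon2, a paraoxonase, had 658 and 978 in the knockout against 1405 and 1346 in wild-type (-0.77 on the log2 scale, adjusted p = 0.047, limma). By parental allele, 1 rose and 1 fell of 8 paternally expressed genes tested, and 3 fell of 20 maternally expressed genes tested. Of the 8, 6 are listed as imprinted in many tissues, and of the 20 only 4, of which 1 fell. The others are reported in particular tissues, and imprinting in WAT was not tested here. The medians of the log2 difference were -0.06 for the 8 paternally expressed and -0.15 for the 20 maternally expressed genes. The calls of Meg3 and Dcn were lost without either wild-type array, and that of Mcts2 without wild-type replicate 1. That of Pon2 was lost without Fsp27 knockout replicate 1, wild-type replicate 1 or wild-type replicate 2. Centring the arrays also removed the calls of Meg3, Dcn and Pon2 (adjusted p = 0.054, 0.062 and 0.12, limma). The call of Pon2 was further lost with no filter on low signals and under quantile normalization (adjusted p = 0.074 and 0.080, limma). It was also lost on the mean of its probe sets and with each probe set alone (adjusted p = 0.055 and 0.052, limma). Over all alternatives the adjusted p ran from 1.5e-08 to 0.26 for Nnat, 0.00039 to 0.35 for Mcts2, 0.0033 to 0.26 for Meg3, 0.00063 to 0.29 for Dcn and 0.0079 to 0.41 for Pon2, and all 5 calls were lost with a spread that did not depend on the signal.

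**Figure D3:**
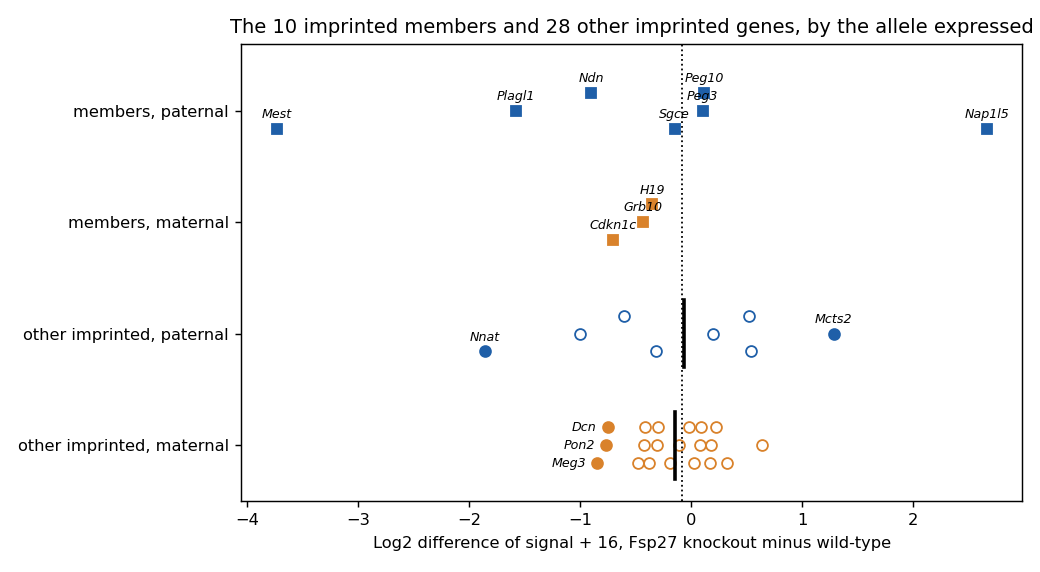
Log2 difference of signal + 16, Fsp27 knockout minus wild-type, for the 10 members (squares) and for the 8 paternally and 20 maternally expressed other imprinted genes that were tested (circles, filled where limma's adjusted p was under 0.05). Thick bars are the medians of the other genes, -0.06 and -0.15, the dotted line is the median of all genes tested, -0.08, and Mest and Nap1l5 lie farthest out on either side.

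Of the genes that share an imprinted region with a member and were tested, Pon2 alone passed the threshold. Copg2, which overlaps the Mest region on the opposite strand, had 660 and 428 in Fsp27 knockout WAT, against 512 and 436 in wild-type WAT, a log2 difference of 0.17 (adjusted p = 0.75, limma) beside -3.73 for Mest. In the region of Ndn, Magel2, another MAGE family gene, had 115 and 204 in the knockout against 104 and 101 in wild-type (log2 difference 0.52, adjusted p = 0.61, limma), while Ube3a, a ubiquitin ligase, and Atp10a, a phospholipid transporter, had log2 differences of -0.30 and 0.08. The 4 probe sets annotated jointly to Snurf and Snrpn, named with their values seen, had log2 differences of -0.08 to 0.42. The probe set of Snrpn alone was too dim to be tested. It had 16.5 and 27.3 in the knockout against 46.0 and 133.5 in wild-type (log2 difference -1.36). In the region of Sgce and Peg10, Pon2 was lower as above, while Pon3, Casd1 and Tfpi2 had log2 differences of 0.09, 0.22 and 0.64, none of which passed the test.

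Igf2, the growth factor gene next to H19, had 238 and 146 in the Fsp27 knockout, against 329 and 460 in wild-type. The arrays did not overlap, but the log2 difference of -1.001 missed the threshold (adjusted p = 0.071, limma). A dimmer probe set of Igf2 had 90.6 and 11.5 in the knockout against 32.5 and 27.8 in wild-type, with overlap (log2 difference 0.23). On the mean of its probe sets Igf2 was -0.38 (adjusted p = 0.73, limma). In the region of Cdkn1c, 7 other genes were tested, all but Slc22a18 reported as maternally expressed only in particular tissues. None of the 7 passed, although Cd81 did under quantile normalization (log2 difference -0.63, adjusted p = 0.022, limma) and under no other alternative. Their log2 differences were -0.48 for the potassium channel gene Kcnq1, -0.43 for the tetraspanin gene Cd81, -0.41 for Osbpl5, -0.11 for Tssc4, -0.02 for Dhcr7, 0.17 for Slc22a18 and 0.32 for Nap1l4, with Cdkn1c itself at -0.71. Those of Tssc4 and Dhcr7 turned positive under quantile normalization, Dhcr7 also after centring the arrays, and Slc22a18 turned negative on the mean of its probe sets. Ddc, beside Grb10, Usp29 and Zim1, beside Peg3, and Phlda2, beside Cdkn1c, had mean signals under 100.

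**Figure D4:**
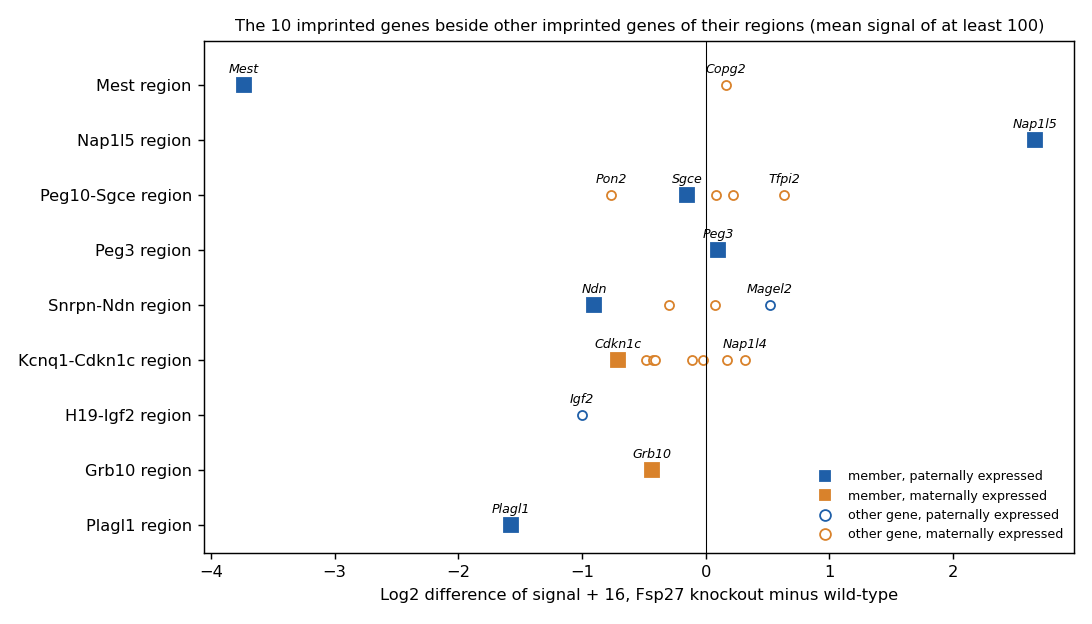
Log2 difference of signal + 16, Fsp27 knockout minus wild-type, for the members (squares) and other imprinted genes of the same region (open circles) that passed the filter on signal, 1 row for each region, blue for paternal and orange for maternal expression. Mest lies at -3.73 and Copg2 in its row at 0.17, and the Cdkn1c row runs from -0.71 to 0.32.

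Marker genes of several cell types moved with the same contrast, where the fit called 5.78% of all genes tested higher and 6.51% lower. Other marker lists, with fewer calls, are given with the processing below. Of 8 fibroblast and preadipocyte markers tested, 4 fell and 0 rose, and their summed signal was 16475 and 18731 in Fsp27 knockout WAT, against 31021 and 30196 in wild-type WAT. Much of that sum is Col3a1 alone, with 8990 and 8998 in the knockout against 16947 and 16636 in wild-type. Mesothelial markers fell in 2 of 4 (sum 1410 and 1006 in the knockout, against 3149 and 3597 in wild-type) and macrophage markers in 5 of 6 (5113 and 6067, against 14660 and 13122). Of the markers that fell, the fibroblast marker Dpp4 and the mesothelial marker Msln passed the filter on mean signal only through the wild-type arrays. Brown adipocyte markers rose in 5 of 5 tested (20119 and 24574 in the knockout, against 1279 and 978 in wild-type), although Ucp1, the uncoupling protein of brown fat, had only 157.2 and 31.3 against 18.9 and 12.9. Dio2, 1 of the 5, passed the filter only through the knockout arrays, with 230 and 342 against 88.4 and 78.5 in wild-type. Cox8b alone gave 13491 and 19539 of the knockout sums. Adipocyte markers, which define the labelled tissue, were bright in both genotypes (185466 and 197179 in the knockout, against 150198 and 168730 in wild-type), with 1 of 6 higher and 1 lower. The part of these cell types in the values of Mest, Plagl1, Ndn, Cdkn1c and Nap1l5 was not tested.

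Among genes that lay down or maintain imprints, such as the DNA methyltransferases, 7 of 10 listed were tested and limma called 0, with 0 at an unadjusted p under 0.05. Of the 7, 3 were higher without overlap and 2 lower, where 22.7% of all genes tested were higher and 31.4% lower. The 3 higher genes passed the filter on mean signal only through the knockout arrays, so nothing is read from these counts. These were Dnmt3b, Dnmt3l and Dppa3, with log2 differences of 2.03 (unadjusted p = 0.052, limma), 1.37 and 0.95, all dim in wild-type. The 2 lower genes were Dnmt1 and Ctcf, with log2 differences of -0.51 and -0.18. Trim28 and Dnmt3a, whose arrays overlapped, had -0.26 and -0.01. Without the dependence of spread on signal limma also called 0, with 2 at an unadjusted p under 0.05, and the methods' t-test called 0, with 0 at an unadjusted p under 0.05.

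The genes whose profile over the 4 arrays was nearest to that of Mest, by the root mean square difference of centred log2 signals over 8522 genes, were Sfrp5 (0.25), Thbs1 (0.34) and Rnase2a (0.37). Sfrp5, a secreted Wnt inhibitor, had 88.2 and 64.9 on the Fsp27 knockout arrays, against 1120 and 698 on the wild-type pair. As for Mest, the first array of each genotype was the brighter. Nearest to Nap1l5 were Car1 (0.39), Gapdhs (0.43) and Shmt1 (0.48). Car1, a carbonic anhydrase, had 300.6 and 365 in the knockout against 88.3 and 10.7 in wild-type, and as for Nap1l5 the second wild-type array was far below the first. The 6 genes were picked for their pattern over 4 arrays, so no test is given.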

How the data were processed

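The deposited values are one intensity per probe set and array, the GCOS signal the authors computed without a log. Neither the version of GCOS nor its scaling target is given in the sources used here, and precision is limited by the number of arrays. The platform annotation gives 20393 of 22690 probe sets 1 symbol, 691 several and 1606 none. A gene was read from its brightest probe set of 1 symbol, and H19 from the probe set it shares with Mir675, which did not enter the fit. The 8523 of 12394 genes whose signal averaged 100 or more were tested on log2(signal + 16) with limma 3.58.1 in R 4.3.3, by lmFit and then eBayes with its trend option on 2 residual degrees of freedom, with Benjamini-Hochberg adjustment over all of them and a threshold of 0.05. For a single gene, the smallest p an exact two-sided permutation test over the 4 arrays allows is 0.333. The study's fold criterion was taken as mean signals at least 1.41-fold apart with both duplicates on the same side.

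The members and lists were chosen with earlier results of these data known. Named genes were the 10 members with every probe set, Cidec, other imprinted genes of the same regions, up to 6 further imprinted genes a direction with the largest change past the threshold, and the 3 genes nearest in profile to Mest and to Nap1l5. The 7 tested genes that lay down or maintain imprints were named beside these, although none passed the threshold. Herc3 and some listed genes are not named on the array here and were not analysed here. Marker lists not described above were endothelial (1 of 6 lower), lymphocyte (0 of 1 tested changed, 0 at an unadjusted p under 0.05), epididymis and testis (0 of 3 tested, 0 at an unadjusted p under 0.05) and skeletal muscle (0 of 1 tested, 1 at an unadjusted p under 0.05). Alternatives changed the pseudocount (1 or 64), the filter (none, or 200), the scaling (quantile normalization, or centring on the array median), the summary of probe sets (their mean, or each alone), the test (limma with no trend, or the methods' t-test), the block (by replicate number) and the arrays (each left out in turn). Where 1 array was left out, the remaining one of its genotype was assumed to vary like the other genotype's. Promoter stretches came from RefSeq (GRCm38.p6). Protein sequences were not used here.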

Additional observations from a re-analysis of the deposited data

How the results depend on the processing

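No alternative scaling or pseudocount changed the sign of a member's log2 difference. The maternal median was -0.32 under quantile normalization. With an array left out, the paternal median ranged from -0.87 to -0.30 and the maternal median from -0.76 to -0.37, the count of all genes called ranged from 216 to 503 higher and 192 to 874 lower, and that of other imprinted genes from 0 to 1 higher and 1 to 4 lower. Of other imprinted genes, 1 was lower after centring and 2 on the mean of probe sets. Without the trend, 1 gene was called higher and 0 lower over all genes, and 0 and 0 of the other imprinted genes. The methods' t-test called 0 and 0 over all genes after adjustment, and 0 and 0 of the other imprinted genes, of which 6 had an unadjusted p under 0.05. By the fold criterion, 796 genes were higher and 1071 lower when both pairs had to pass the fold, and 2196 were higher with no filter. On the mean of its probe sets, the log2 difference was -0.35 for Plagl1 and -0.70 for Ndn, both no longer called, and -0.19 for Grb10, which was -0.32 under quantile normalization.

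Of the log2 differences of single other genes, 267 of those recomputed stayed on the same side of the threshold and in the same direction, 28 lost their call, 3 gained one and 14 changed sign. Under quantile normalization Tssc4 was 0.0058 and Dhcr7 0.085, after centring Dhcr7 was 0.048, and on the mean of probe sets Slc22a18 was -0.37. With an array left out, the log2 differences ran from -0.15 to 0.31 for Atp10a, -0.14 to 0.47 for Copg2, -0.39 to 0.35 for Dhcr7, -1.07 to 0.11 for Kcnq1, -0.18 to 0.36 for Pon3, -0.12 to 0.47 for Slc22a18 and -0.24 to 0.024 for Tssc4. The causes of these changes were not tested. The labels number the arrays of both genotypes 1 and 2 and do not say what arrays of the same number share. Their deviations correlated at 0.065 across genes. The median signal was higher on replicate 1 in both genotypes, at 181 against 165 in the knockout and 193 against 172 in wild-type. With the number as a replicate block, 635 genes were called higher and 831 lower, 1 and 5 of the other imprinted genes, and the adjusted p of Igf2 was 0.036 (0.018 to 0.73 over its alternatives). Signals near the floor limit what can be said of Peg10, H19 and the wild-type level of Nap1l5.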
